A study of Mus musculus with 18 samples.

Results

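The 10 genes described here handle iron in macrophages. Slc40a1 and Cp serve iron export, Hmox1 frees iron from haem, Fth1, Ftl1 and Ncoa4 serve storage, Tfrc, Slc11a1 and Slc11a2 serve uptake and transport, and Spic is a transcription factor of iron-recycling macrophages. They were picked as a group by symbol with earlier results of these data known, Slc40a1 among them, so the counts below are not those of a set chosen blind to the data. All 10 were found among the 18668 gene symbols of the table. The levels are RPKM, which divide the reads of a gene by its length and by the sequenced reads of its library. A gene was tested when it reached 0.1 RPKM in at least 3 libraries, which held for all 10 iron genes and for 12838 genes in all.

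The 18 libraries held RNA of murine macrophages matured from marrow in culture (BMDM) under the growth factor M-CSF. Donor mice were Apoe-/- or Apoe-/-/Treml4-/- (DKO), both of C57BL6 background and both without apolipoprotein E. DKO mice were bred by crossing in a Treml4-/- line that lacks this myeloid receptor in every cell, so that the marrow cells had also developed without it. Each genotype was left untreated (PBS vehicle) or received oxidized low-density lipoprotein (oxLDL), the modified lipid particle taken up by foam cells, at 10 or 60 µg/ml (oxLDL 10 and oxLDL 60), and each of the 6 groups had 3 replicates. The series gives 16 h of treatment and another description in the study gives a longer one. The age of the mice is not given in the sources used here, and the labels also list LPS among the treatments and more than 1 sequencing platform, without saying which library was concerned.

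As background, macrophages take iron from transferrin through the transferrin receptor and from haem through heme oxygenase. Iron not in use is kept inside ferritin, and ferroportin, the product of Slc40a1, is the known route of iron out of the cell. Iron regulatory proteins bind a hairpin called the iron-responsive element. A hairpin in the 5′ UTR lets them hold back translation, whereas hairpins in the 3′ UTR let them protect the transcript from decay, so RNA levels alone do not give protein levels. Hmox1, Slc40a1 and the ferritin genes are also known targets of NRF2, the transcription factor of the oxidative stress response.

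The hairpins are shown because they are the known sites through which iron acts on several of these RNAs. Annotated coding transcripts (GENCODE M21, build GRCm38, which is mm10) were searched for a loop CAGTGN with N other than G, between 5 paired bases on each side, a C bulged below them, and at least 4 of 5 pairs below the bulge, G with T counted as a pair. Of 21877 coding genes, 24 held a match (0.11%), and 4 of these were iron genes described here. Fth1, Ftl1 and Slc40a1 each held 1 match in the 5′ UTR, and Tfrc held 4 in the 3′ UTR. The pattern is strict, and Slc11a2, which is known for a 3′ UTR element of less usual shape, had no match, so the search does not separate the iron-regulated genes from the others. The 27-base sites of the ferritin genes and of Tfrc read as follows, 5′ to 3′ on the transcript's strand, with the loop of 6 bases in capitals.
Fth1, chr19:9982733-9982759, plus strand, 5′ UTR: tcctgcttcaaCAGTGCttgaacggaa
Ftl1, chr7:45459780-45459806, minus strand, 5′ UTR: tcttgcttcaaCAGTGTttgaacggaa
Tfrc, chr16:32631220-32631246, plus strand, 3′ UTR: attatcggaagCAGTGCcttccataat
Tfrc, chr16:32631599-32631625, plus strand, 3′ UTR: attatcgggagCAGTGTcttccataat
Tfrc, chr16:32631664-32631690, plus strand, 3′ UTR: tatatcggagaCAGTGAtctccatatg
Tfrc, chr16:32631711-32631737, plus strand, 3′ UTR: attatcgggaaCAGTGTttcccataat

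Slc40a1 (chr1:45908068-45926523, minus strand) has its match at chr1:45925466-45925492. A match describes letters only, and its use in these cells was not measured. In the promoter table from RefSeq (GRCm38.p6, 250 bases before to 50 after a start site), 7 of the 10 genes had 12 promoters, and Slc40a1, Hmox1 and Slc11a2 were the others. The antioxidant response element TGACNNNGC, searched on both strands, was found in 1 of the 12, that of Ncoa4, and in 12.4% of all 32851 promoters. Bases outside this short window were not searched, so the count does not tell which of the genes NRF2 can bind.

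Depth estimated from the table was 39.7 to 54.1 M reads per library. Treml4 lay between 1.86 and 8.39 RPKM in Apoe-/- libraries and at or below 0.012 RPKM in DKO libraries, as labelled, and residual Apoe transcripts lay between 0.349 and 4.13 RPKM in all. Xist, which is transcribed in female cells, was present in 6 libraries (7.25 to 14.5 RPKM, against at most 0.069 in the other 12), namely replicate 2 of Apoe-/- and replicate 3 of DKO at each treatment, so that sex is spread evenly over the groups. Within a genotype these libraries share a replicate number, so sex cannot be told apart there from that replicate. Fits below with a term for Xist, or without these libraries, adjust for or drop that replicate. Dropping it also leaves fewer libraries in each group. The 7 macrophage markers summed to 5458 to 11692 RPKM, most of it from Lyz2 (3970 to 9911 RPKM). The sum was lower with oxLDL 60 than untreated, without overlap, in both genotypes. It was 6423 to 8353 against 8614 to 11352 RPKM in Apoe-/- and 5458 to 7042 against 8058 to 10530 RPKM in DKO. The 7 erythroid markers, which would report red cell precursors and their iron genes, summed to 0.0796 to 0.378 RPKM, and the 4 lymphocyte markers to at most 0.0673 RPKM. The 4 dendritic cell markers and the 4 of mast cells and basophils reached 0.306 and 0.332 RPKM, and the 5 fibroblast and endothelial markers 0.654 to 6.68 RPKM. The 6 neutrophil markers were higher, at 29.1 to 80.2 RPKM, with S100a8 and S100a9 leading and Ly6g at or below 0.026 RPKM. In bulk RNA, fewer cells of a type and less RNA per cell cannot be told apart.

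Slc40a1, the gene for the iron exporter ferroportin, was the iron gene that differed between the genotypes. In untreated cells its level was 1.59, 1.74 and 2.42 RPKM in replicates 1 to 3 of Apoe-/- and 8.18, 8.23 and 6.91 RPKM in DKO. With oxLDL 10 it was 3.11, 3.15 and 3.28 RPKM in Apoe-/- and 19.6, 23.5 and 15.0 RPKM in DKO. With oxLDL 60 it was 9.14, 8.39 and 9.96 RPKM in Apoe-/- and 64.1, 67.8 and 54.1 RPKM in DKO. No 2 of the 6 groups overlapped, and their order from low to high was untreated Apoe-/-, Apoe-/- with oxLDL 10, untreated DKO, Apoe-/- with oxLDL 60, DKO with oxLDL 10 and DKO with oxLDL 60. Untreated DKO cells thus lay between the Apoe-/- cells at the low and the high amount of oxLDL. The highest library stood 42.6-fold above the lowest, and the place of Slc40a1 among all genes of a library ranged from 9354 to 812 counted from the most abundant.

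**Figure D1:**
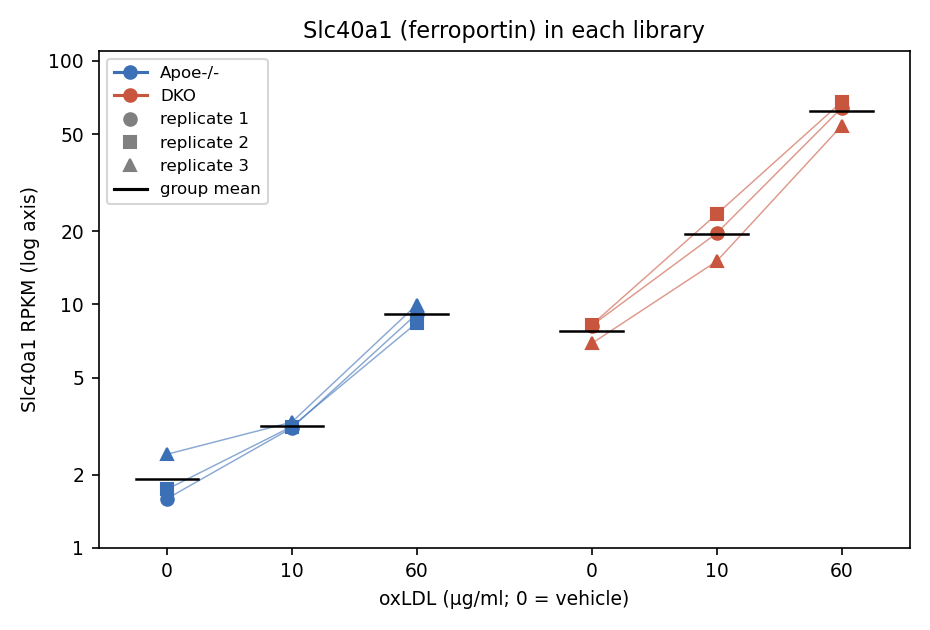
Level of Slc40a1 in RPKM (log axis) in each of the 18 libraries against oxLDL in µg/ml, with Apoe-/- in blue and DKO in red, symbols for replicates 1 to 3, thin lines joining the same replicate number within a genotype and black bars for group means. The 6 groups do not overlap, and DKO libraries run from 6.91 to 67.8 RPKM against 1.59 to 9.96 RPKM in Apoe-/-.

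Calls asked for a limma adjusted p under 0.05 together with a change of at least 1.4-fold on the log2(RPKM + 0.1) scale. In untreated cells 1 of the 10 iron genes was called between DKO and Apoe-/-, against 0.21% of all genes tested (17.3% at an unadjusted p under 0.05, where it was also 1 of 10). With oxLDL 10 it was 1 of 10 against 0.0857% (unadjusted, 2 of 10 against 9.75%), and with oxLDL 60 it was 1 of 10 against 0.125% (unadjusted, 1 of 10 against 7.88%). The gene called was Slc40a1 at each treatment, with log2 fold changes of 1.98, 2.55 and 2.74 (SE 0.15 each, limma adjusted p = 2.63e-06, 5.6e-08 and 1.75e-08). The ratios of the group means were 4.06, 6.09 and 6.77. The summed neutrophil markers reached higher in DKO, with overlap, at 35.4 to 80.2 RPKM against 29.2 to 45.2 untreated, 36.8 to 77.7 against 35.0 to 47.2 with oxLDL 10 and 31.9 to 57.7 against 29.1 to 41.9 with oxLDL 60, and their part in the difference was not tested. By fold change Slc40a1 was the second of 22 genes called higher in untreated DKO cells, the first of 8 with oxLDL 10 and the first of 10 with oxLDL 60. These comparisons use different libraries, but libraries with the same replicate number within a genotype deviated together, and an exact permutation test of 3 against 3 replicates cannot go below p = 0.10.

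The other 9 iron genes were not called between genotypes at any treatment. Their log2 fold changes ran from -0.35 to 0.37 untreated, from -0.62 to 0.20 with oxLDL 10 and from -0.21 to 0.03 with oxLDL 60. The widest bounds of estimate ± 2 SE were -0.79 for Cp and 0.80 for Tfrc untreated, -1.0 for Spic and 0.60 for Tfrc with oxLDL 10, and -0.71 for Cp and 0.45 for Tfrc with oxLDL 60. Over the 10 iron genes the median log2 fold change between genotypes was 0.06, 0.02 and -0.04 at the 3 treatments, beside 0.09, 0.05 and -0.02 over all genes tested.

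**Figure D2:**
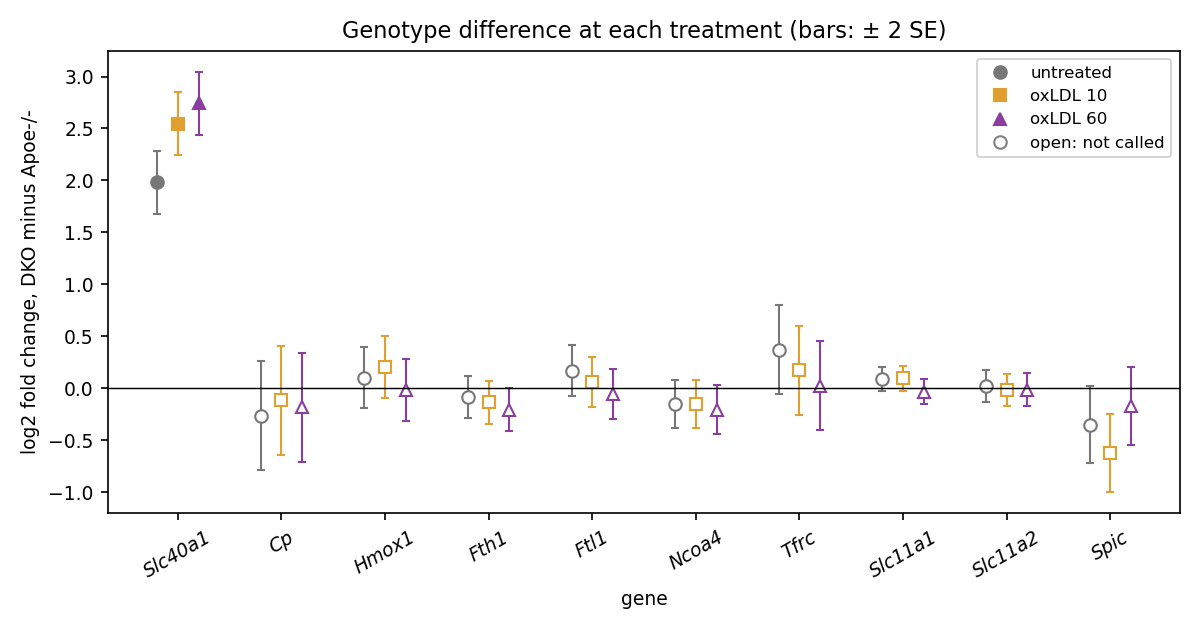
Log2 fold change of DKO over Apoe-/- for the 10 iron genes (x axis) in untreated cells (circles), with oxLDL 10 (squares) and with oxLDL 60 (triangles), with bars of ± 2 SE from the limma fit and filled symbols for called genes. Slc40a1 lies at 1.98, 2.55 and 2.74, and the other 9 genes lie between -0.62 and 0.37 with open symbols.

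Slc40a1 also rose with oxLDL in both genotypes. In Apoe-/- cells it rose by 0.72 on the log2 scale with oxLDL 10 (SE 0.15, limma adjusted p = 0.00827) and by 2.22 with oxLDL 60 (adjusted p = 9.69e-09). In DKO cells it rose by 1.29 with oxLDL 10 (adjusted p = 0.000107) and by 2.98 with oxLDL 60 (adjusted p = 5.97e-10). By fold change it held place 4 of 73 genes called higher with oxLDL 10 in DKO and place 4 of 625 with oxLDL 60, while in Apoe-/- it held place 31 of 96 and place 16 of 915. The step from oxLDL 10 to oxLDL 60 was 1.5 in Apoe-/- and 1.69 in DKO (both called).

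Whether the oxLDL response of Slc40a1 differed between genotypes was tested with the interaction term. Taken within replicate numbers, oxLDL 60 multiplied Slc40a1 by 5.75, 4.83 and 4.11 in Apoe-/- (4.90 ± 0.819, SD, n = 3) and by 7.83, 8.23 and 7.83 in DKO (7.97 ± 0.231, SD, n = 3). With oxLDL 10 the ratios were 1.95, 1.81 and 1.36 in Apoe-/- and 2.40, 2.85 and 2.18 in DKO. All DKO ratios were above all Apoe-/- ratios at each amount. The interaction was 0.76 on the log2 scale for oxLDL 60 (SE 0.21, limma adjusted p = 0.507) and 0.56 for oxLDL 10 (SE 0.21, adjusted p = 1), so neither was called, nor was that of another iron gene (0 of 10 each, against 0.0156% and 0% of all genes tested). With the replicate number as a block within genotype, the oxLDL 60 interaction of Slc40a1 was called (limma adjusted p = 0.0487), as were 0.0389% of the genes tested. At an unadjusted p under 0.05, 1 of 10 iron genes, again Slc40a1, passed for each interaction, beside 9.78% of all genes for oxLDL 60 and 1.92% for oxLDL 10.

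The plasma ferroxidase gene Cp, whose product loads exported iron onto transferrin, was low and moved the opposite way. Its RPKM were 0.277, 0.421 and 0.506 in untreated Apoe-/- cells and 0.0854, 0.138 and 0.235 with oxLDL 60. Those in DKO were 0.272, 0.217 and 0.484 untreated and 0.0884, 0.0898 and 0.182 with oxLDL 60. Neither pair of groups overlapped, and the step size of the values put 22 to 141 reads behind each. Cp fell by 1.0 on the log2 scale with oxLDL 60 in Apoe-/- (SE 0.26, limma adjusted p = 0.00752) and by 0.92 in DKO (SE 0.26, adjusted p = 0.0147). The DKO call was lost without untreated replicate 3 (limma adjusted p = 0.0875), without oxLDL 60 replicate 1 (0.0592) or without oxLDL 60 replicate 2 (0.0603). Both calls were lost with a pseudocount of 1, at which levels as low as those of Cp cannot reach the 1.4-fold limit. With oxLDL 10 Cp changed by -0.72 in Apoe-/- (limma adjusted p = 0.115), and this was called with the replicate block (adjusted p = 0.0183).

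Counted over the set, oxLDL 60 raised 4 of the 10 iron genes in Apoe-/- cells, against 7.13% of all genes called higher, and lowered 1, against 6.78% called lower. In DKO cells it raised 3, against 4.87%, and lowered 1, against 7.31%. With oxLDL 10, 2 of 10 were called higher in each genotype, against 0.748% of all genes in Apoe-/- and 0.569% in DKO. None of the 10 was called lower there. Of 12838 genes tested, 358 were called in Apoe-/-, 96 of them higher, and 290 in DKO, 73 of them higher. From oxLDL 10 to oxLDL 60, 3 of 10 were called higher in each genotype, against 2.91% of all genes in Apoe-/- and 1.92% in DKO. None was called lower, beside 829 genes called in Apoe-/-, 374 of them higher, and 726 in DKO, 246 of them higher. The median log2 fold change of the 10 genes with oxLDL 60 was 0.30 in Apoe-/- and 0.31 in DKO, beside 0.06 and -0.06 over all genes tested. The genes raised by oxLDL 10 in both genotypes were Slc40a1 and Hmox1.

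**Figure D3:**
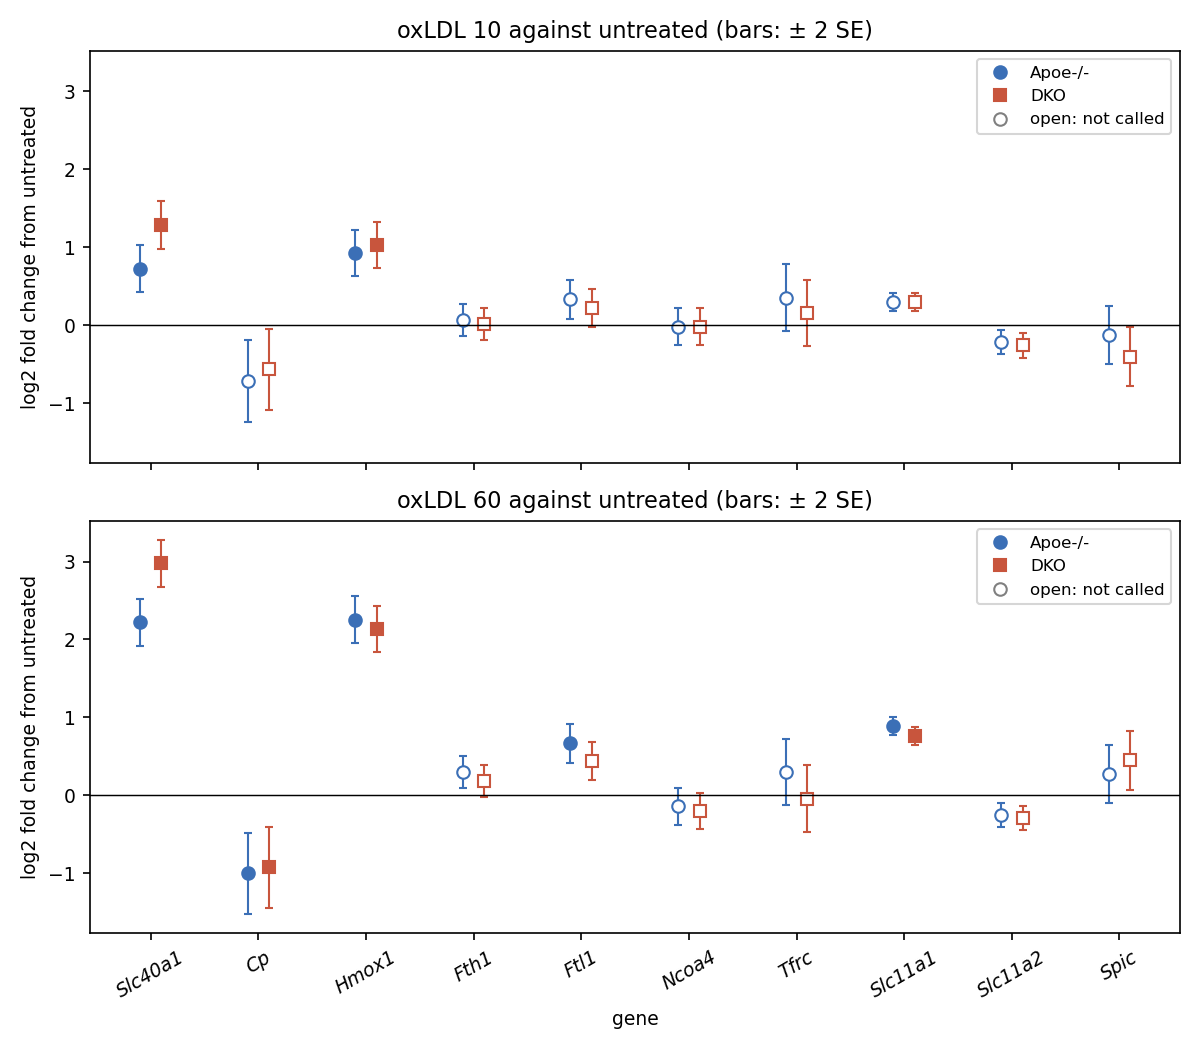
Log2 fold change from untreated cells for the 10 iron genes with oxLDL 10 (upper panel) and oxLDL 60 (lower panel), in Apoe-/- (blue circles) and DKO (red squares), with bars of ± 2 SE from the limma fit and filled symbols for called genes. With oxLDL 60, Slc40a1 (2.22 and 2.98) and Hmox1 (2.26 and 2.14) lie highest, Slc11a1 follows (0.89 and 0.76) and Cp lies lowest (-1.0 and -0.92).

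Hmox1 encodes heme oxygenase 1, which opens the haem ring and releases its iron. Its level was 514, 582 and 472 RPKM in untreated Apoe-/- cells, 1215, 821 and 978 RPKM with oxLDL 10, and 2821, 2133 and 2557 RPKM with oxLDL 60. In DKO cells it was 613, 568 and 504 RPKM untreated, 1259, 1149 and 1031 RPKM with oxLDL 10, and 2931, 2351 and 2160 RPKM with oxLDL 60. The 3 treatments did not overlap within a genotype, whereas the genotypes overlapped at every treatment. Hmox1 rose by 0.93 on the log2 scale with oxLDL 10 in Apoe-/- (SE 0.15, limma adjusted p = 0.00115) and by 1.03 in DKO (adjusted p = 0.000716). With oxLDL 60 it rose by 2.26 in Apoe-/- (adjusted p = 6.33e-09) and by 2.14 in DKO (adjusted p = 1.48e-08). The ratio of the oxLDL 60 mean to the untreated mean was thus 4.79 in Apoe-/- and 4.42 in DKO. For Slc40a1 the same ratios were 4.78 and 7.97, and its interaction was not called without the replicate block. The rank of Hmox1 by abundance ranged from 111 to 11 of all genes.

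The ferritin genes were the most abundant of the set. Ftl1, the light chain, ranked 1 or 2 among all genes in every library, and Fth1, the heavy chain that oxidizes iron for storage, ranked 5 to 10. Together they held 3.37 to 5.16% of the summed RPKM of a library. Ftl1 went from 8626, 10397 and 9714 RPKM in untreated Apoe-/- cells to 15524, 15927 and 14052 RPKM with oxLDL 60, with no overlap. In DKO it went from 10927, 11384 and 9916 RPKM to 15384, 13977 and 14426 RPKM, again with no overlap. Ftl1 rose by 0.67 on the log2 scale in Apoe-/- (SE 0.12, limma adjusted p = 0.000498), a call lost when no filter on low values was used (adjusted p = 0.209). In DKO the estimate was 0.44 (SE 0.12, adjusted p = 0.0126), under the limit of 1.4-fold, and it passed that limit after rescaling by the median ratio (0.51) or without untreated replicate 2 (0.49). The interaction of genotype and oxLDL 60 for Ftl1 was not called (adjusted p = 0.656). Reads of Ftl1 may be shared with processed copies such as Ftl1-ps1, so its level is uncertain to that extent.

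Fth1 varied little, between 3039 and 4671 RPKM over all 18 libraries. In Apoe-/- it was 3515 ± 417 RPKM untreated and 4320 ± 311 RPKM with oxLDL 60, and in DKO 3304 ± 63.8 and 3757 ± 387 RPKM (SD, n = 3). The increase in Apoe-/- had a limma adjusted p of 0.034 at a log2 fold change of 0.30, under the fold limit, and that in DKO did not pass (adjusted p = 0.223). As chosen after its values were seen, the ratio of Ftl1 to Fth1 was 2.73 ± 0.103 in untreated Apoe-/- and 3.25 ± 0.247 in untreated DKO, 3.28 ± 0.188 and 3.75 ± 0.208 with oxLDL 10, and 3.53 ± 0.454 and 3.90 ± 0.212 with oxLDL 60 (SD, n = 3). The genotypes did not overlap in this ratio untreated (2.63 to 2.84 against 3.01 to 3.51) or with oxLDL 10 (3.07 to 3.44 against 3.63 to 4.00), and they overlapped with oxLDL 60. The hairpins of both ferritin RNAs are shown above, and their translation was not measured.

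Ncoa4, the receptor that carries ferritin to lysosomes to release its iron, stayed between 36.2 and 57.3 RPKM. It was at 50.2 ± 7.85 RPKM in untreated Apoe-/- and at 45.2 ± 5.45 RPKM with oxLDL 60, and at 44.8 ± 2.54 and 39.1 ± 3.20 RPKM in DKO (SD, n = 3). Within replicate numbers it was lower with oxLDL 60 than untreated in 3 of 3 pairs of each genotype, but it was called in none of the 11 comparisons or their alternatives.

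**Figure D4:**
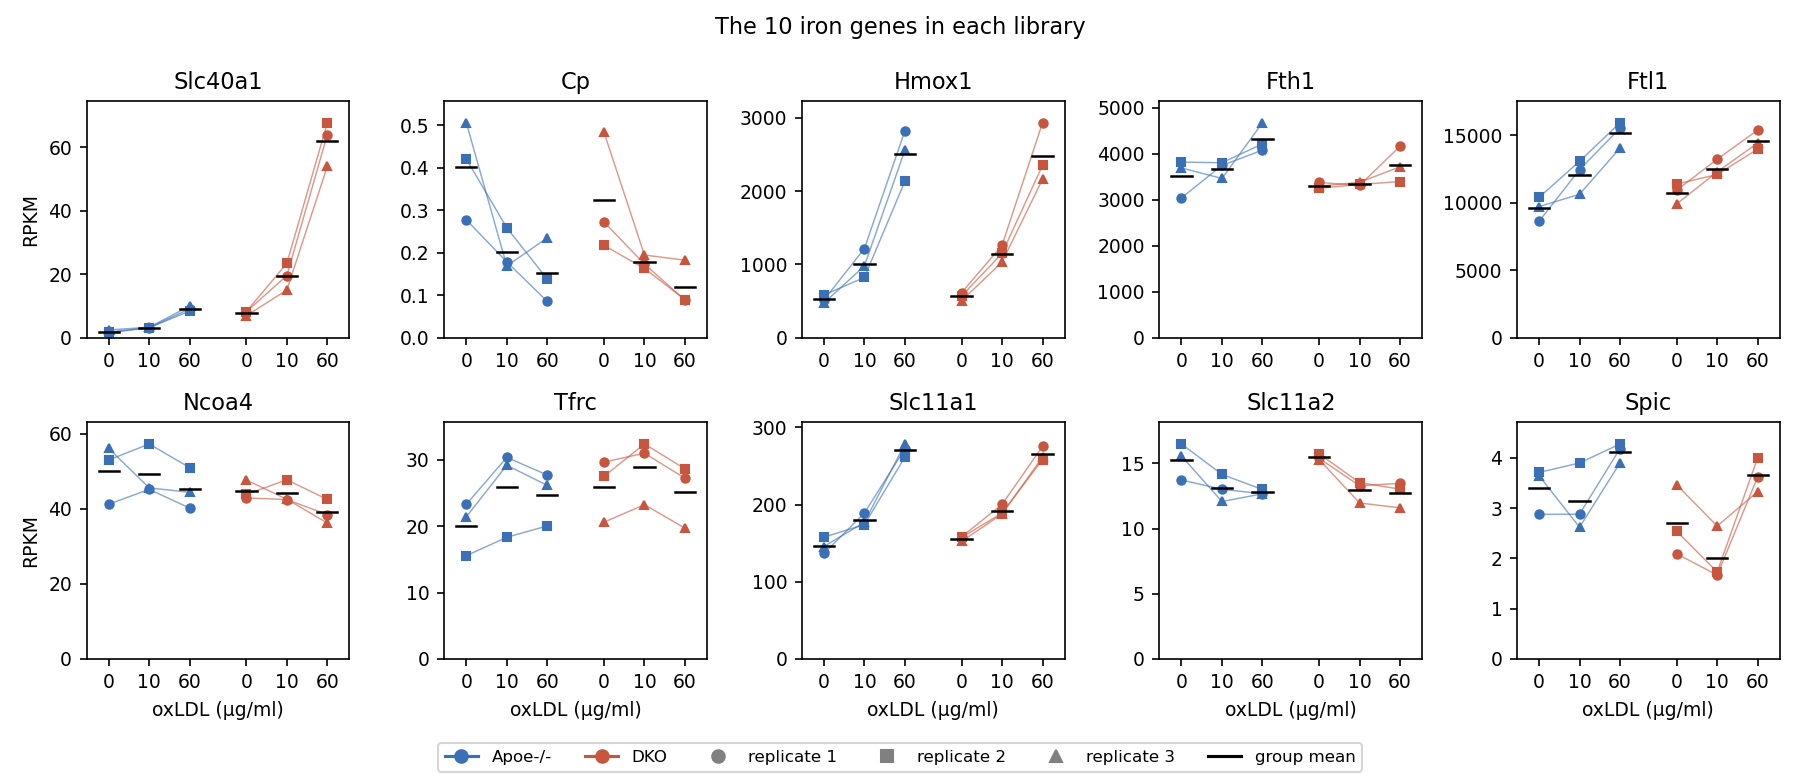
Levels in RPKM (linear axes from 0, 1 panel for each of the 10 genes) in each of the 18 libraries against oxLDL in µg/ml, with Apoe-/- in blue and DKO in red, symbols for replicates 1 to 3, thin lines joining the same number within a genotype and black bars for group means. Slc40a1 shows separated genotypes, Hmox1, Ftl1 and Slc11a1 climb with oxLDL to like levels in both, Cp falls, and Tfrc is lowest in replicate 2 of Apoe-/- and replicate 3 of DKO.

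Tfrc, the transferrin receptor and the gene with 4 matches to the strict hairpin pattern in its 3′ UTR, was called in none of the 11 comparisons or their alternatives. In untreated cells it was at 23.3, 15.6 and 21.4 RPKM in Apoe-/- and at 29.7, 27.5 and 20.6 RPKM in DKO. With oxLDL 60 it was at 27.7, 20.1 and 26.2 RPKM in Apoe-/- and at 27.2, 28.7 and 19.7 RPKM in DKO. At each treatment the lowest library of its group was the one with Xist. With a term for the Xist-positive libraries the difference between untreated DKO and Apoe-/- cells was 0.37 on the log2 scale (limma adjusted p = 0.00261, against 0.377 with no such term), and without those libraries it was 0.35 (adjusted p = 0.0229), both under the fold limit. The change with oxLDL 60 in Apoe-/- was 0.30 with that term (adjusted p = 0.000824) and that with oxLDL 10 was 0.35 (adjusted p = 0.000969), again under the fold limit. Within replicate numbers Tfrc was higher with oxLDL 60 in 3 of 3 Apoe-/- pairs and in 1 of 3 DKO pairs.

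Slc11a1 encodes NRAMP1, a metal transporter of the phagosome, and a known missense allele in C57BL6 mice impairs the protein. Its RPKM were 137, 158 and 146 in untreated Apoe-/- cells, 189, 174 and 177 with oxLDL 10 and 272, 261 and 279 with oxLDL 60. In DKO its RPKM were 158, 157 and 152 untreated, 200.2, 189 and 188 with oxLDL 10 and 275, 258 and 262 with oxLDL 60. The levels climbed in steps without overlap in both genotypes. The rise with oxLDL 60 was 0.89 on the log2 scale in Apoe-/- (SE 0.06, limma adjusted p = 6.51e-09) and 0.76 in DKO (SE 0.06, adjusted p = 4.26e-08), and both were called. With oxLDL 10 the estimate was 0.30 in each genotype (adjusted p = 0.00557 and 0.00626), under the fold limit. The step from oxLDL 10 to oxLDL 60 was called in Apoe-/- (0.59) and was under the fold limit in DKO (0.46, adjusted p = 4.76e-05), where rescaling by the median ratio (0.55) or leaving out oxLDL 10 replicate 1 (0.49) brought a call.

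Slc11a2, which encodes DMT1 and lets iron out of the endosome, went slightly the other way. Its RPKM were 13.7, 16.5 and 15.6 in untreated Apoe-/- cells and 12.7, 13.0 and 12.7 with oxLDL 60. Those in DKO were 15.4, 15.7 and 15.3 untreated and 13.5, 13.0 and 11.6 with oxLDL 60. The groups did not overlap in either genotype. The estimates were -0.25 in Apoe-/- (SE 0.08, limma adjusted p = 0.021) and -0.29 in DKO (SE 0.08, adjusted p = 0.0111), both short of 1.4-fold and so not called.

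Spic, whose factor SPI-C drives the development of iron-recycling macrophages of the splenic red pulp, was at 1.67 to 4.28 RPKM. Its RPKM in Apoe-/- cells were 2.88, 3.71 and 3.64 untreated, 2.88, 3.90 and 2.62 with oxLDL 10 and 4.19, 4.28 and 3.90 with oxLDL 60. Those in DKO cells were 2.09, 2.54 and 3.46 untreated, 1.67, 1.73 and 2.64 with oxLDL 10 and 3.62, 4.00 and 3.33 with oxLDL 60. The DKO library with Xist was the highest of its group untreated and with oxLDL 10 and the lowest with oxLDL 60. Spic rose by 0.85 on the log2 scale from oxLDL 10 to oxLDL 60 in DKO (SE 0.19, limma adjusted p = 0.00502), and the same step in Apoe-/- was 0.40 (adjusted p = 0.186).

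Between genotypes, Spic had a log2 fold change of -0.62 with oxLDL 10 (SE 0.19, limma adjusted p = 0.365). This was called with a term for the Xist-positive libraries (adjusted p = 0.0409) and without those libraries (-0.66, adjusted p = 0.0284). Without them the change with oxLDL 60 in DKO was also called (0.70, adjusted p = 0.00124, against 0.45 and 0.0918 with all libraries, and 0.64 and 0.0223 without untreated replicate 3 alone), as was the step from oxLDL 10 to oxLDL 60 in Apoe-/- (0.54, adjusted p = 0.0143). Both alternatives concern the same replicate number of each genotype, so they are not separate support, and sex cannot be told apart from that replicate. The direction of Spic at oxLDL 10, lower in DKO, was the opposite of that of Slc40a1. The 4 other red pulp markers, Vcam1, Cd163, Siglec1 and Epb41l3, summed to 18.0 to 32.8 RPKM, most of it from Siglec1 (13.5 to 27.6 RPKM). None was called between genotypes, and their sum overlapped between genotypes at each treatment. Untreated, it was 23.95 to 26.94 RPKM in DKO against 25.15 to 32.82 RPKM in Apoe-/-. With oxLDL 10 it was 20.28 to 24.96 against 18.41 to 24.44 RPKM, and with oxLDL 60 18.01 to 21.74 against 18.00 to 24.04 RPKM. From this list Cd163 was picked by its results. Cd163, a haemoglobin scavenger receptor, was at 0.546 to 0.633 RPKM in untreated Apoe-/- and at 0.230 to 0.343 RPKM in untreated DKO, without overlap (log2 fold change -0.76, SE 0.21, limma adjusted p = 0.105). This was called with a term for the Xist-positive libraries (limma adjusted p = 0.00851) and without those libraries (0.0315). It also passed with the replicate block (0.0494). For a comparison between genotypes, that block joined equal numbers across genotypes, where the median r of such pairs was -0.17, so it has little weight here. Its estimates with oxLDL 10 and oxLDL 60 were -0.51 and -0.37 (adjusted p = 0.488 and 0.685), with overlap.

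Other genes of iron and haem handling were counted from a list of 40, of which 37 were matched by symbol and 29 tested. None was called between genotypes at any treatment, and at an unadjusted p under 0.05 there were 4 of 29 untreated, 5 with oxLDL 10 and 2 with oxLDL 60, beside 17.3%, 9.75% and 7.88% of all genes. With a term for the Xist-positive libraries, Lcn2 and Ltf, which encode the granule proteins lipocalin and lactoferrin, were called higher in DKO with oxLDL 10 (0.52 and 0.79, limma adjusted p = 0.0401 and 0.0316), as they were without those libraries (adjusted p = 0.044 and 0.0204). With oxLDL 60, 6 of 29 were called higher and 2 lower in Apoe-/- (7.13% and 6.78% of all genes), and 3 higher and 2 lower in DKO (4.87% and 7.31%). Slc48a1, which moves haem out of the phagolysosome, rose from 80.2 to 153 RPKM in Apoe-/- (group means) and from 83.0 to 145 RPKM in DKO (log2 fold changes 0.94 and 0.81, SE 0.08). Blvrb, a biliverdin reductase, rose by 0.97 and 0.84 (SE 0.10), and Flvcr1, a haem exporter, by 0.72 and 0.62 (SE 0.08). Lcn2, whose protein binds iron-carrying siderophores, fell by 1.21 in Apoe-/- and by 1.31 in DKO (SE 0.20). With oxLDL 10 it was the 1 of 29 listed genes called in each genotype, beside 358 and 290 of all 12838 genes tested. There it fell by 0.93 in Apoe-/- and by 0.76 in DKO. The latter call, in DKO, was lost in 9 of 29 alternatives, 6 of which left out 1 library (untreated replicate 1 or 2, oxLDL 10 replicate 2 or 3 or oxLDL 60 replicate 2 of DKO, or oxLDL 60 replicate 3 of Apoe-/-).

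Of 10 NRF2 targets outside the set, 9 were called higher with oxLDL 60 in Apoe-/- and 8 in DKO, beside 7.13% and 4.87% of all genes. With oxLDL 10, 7 were called higher in each genotype, beside 0.748% and 0.569%. None was called between genotypes, beside 0.21% of all genes untreated, 0.0857% with oxLDL 10 and 0.125% with oxLDL 60. At an unadjusted limma p under 0.05 there were 3 of 10 untreated, 0 with oxLDL 10 and 1 with oxLDL 60. The shares of all genes were 17.3%, 9.75% and 7.88%. Srxn1, which repairs oxidized peroxiredoxins, rose by 2.52 and 2.31 with oxLDL 60 (SE 0.11), and Nqo1, a quinone reductase, by 2.22 and 1.95 (SE 0.10). The median log2 fold change of the 10 was 1.74 in Apoe-/- and 1.64 in DKO with oxLDL 60, beside 0.06 and -0.06 over all genes tested. Between genotypes it was 0.15 untreated, 0.10 with oxLDL 10 and -0.09 with oxLDL 60, beside 0.09, 0.05 and -0.02.

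The genes whose levels ran most like those of an iron gene over the 18 libraries differed between Hmox1 and Slc40a1. Pearson correlations of log2(RPKM + 0.1) describe the likeness, and the libraries share treatments, animals and genotypes. For Hmox1 they were Gclm (0.994), Gsr (0.992) and Txnrd1 (0.991), all on the NRF2 list. This was not particular to Hmox1. For Slc11a1 they were Gclm (0.993), Chpf2 (0.993) and Gclc (0.992), of which Gclm and Gclc are on that list. For Slc40a1 they were Fam83f (0.933), Herc3 (0.907) and Baiap2 (0.887). Fam83f averaged 6.42, 9.90 and 13.2 RPKM in Apoe-/- cells untreated, with oxLDL 10 and with oxLDL 60, and 10.2, 14.7 and 18.2 RPKM in DKO. For Tfrc they were Lnpk (0.953), Raet1d (0.952) and Ssx2ip (0.930), and for Spic Ptgir (0.793) and Tcp11l2 (0.792).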

How the data were processed

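The authors aligned reads with STAR to mm10 (per the labels) and deposited 1 table of RPKM for all 18 libraries. The study's methods name a workflow with RnaSeqC, Subread (spelled Subred), DESeq2, edgeR and limma, without saying which step made the RPKM, and the annotation is not given in the sources used here. Groups and replicate numbers came from the sample labels, each column was matched by its name, and 0 columns were left unused. The authors' own count test was not repeated because RPKM are not counts. RPKM are relative, so a few abundant RNAs can lower all others.

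Values were analysed as log2(RPKM + 0.1), which understates changes of low genes such as Cp. One limma 3.58.1 model (R 4.3.3, eBayes with trend) with 6 group means was fitted to all genes tested, with Benjamini-Hochberg adjustment within each of 11 comparisons. It held no term for the replicate number, so its p-values do not use the pairing of libraries described below. A fit with the replicate number as a block was among the alternatives. The script was tested on simulated data. Python 3.11.15, pandas 2.3.3, numpy 2.4.6, scipy 1.17.1 and matplotlib 3.10.9 did the rest. Depth came from the step that 1 read makes in low values and GENCODE lengths. At that depth 3 reads on Cp equal 0.00884 to 0.0121 RPKM, which covers counting error only.

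Within a genotype, libraries of the same replicate number deviated together in all 18 pairs (r across genes 0.18 to 0.69, median 0.41, against a median of -0.35 for other numbers), so the numbers pair libraries there. Pairs across genotypes with equal numbers had a median of -0.17. The labels say replicates are biological.

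The members and lists were chosen with earlier results of these data known. All members are named. The other lists are given by counts, with up to 4 called genes of largest fold change and at least 1 RPKM. Outside this rule, genotype values are given for Cd163, Lcn2 and Ltf. Only alternatives called these genotype differences, so the genes were picked from the results. Look-alike genes are the 3 with the highest r for Slc40a1, Hmox1, Slc11a1, Tfrc and Spic. One look-alike gene of Spic is not reported here. Alternatives changed pseudocount, filter, scaling, libraries in the fit, replicate block, trend, a term for Xist and the fold limit, and left out each library.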

Additional observations from a re-analysis of the deposited data

How the results depend on the processing

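Each of 110 pairs of gene and comparison was computed under 29 alternatives, 18 of which left out 1 library. Of the 22 called pairs, 19 kept the call in every alternative that gave a value, and the 3 others were Cp with oxLDL 60 in both genotypes and Ftl1 with oxLDL 60 in Apoe-/- (given above). None of the 22 changed sign, and 12 of 88 pairs not called were called in some alternative. The genotype difference of Slc40a1 was called in all 29, from 1.60 to 2.16 untreated, 2.26 to 2.72 with oxLDL 10 and 2.63 to 2.84 with oxLDL 60. The number of iron genes called between genotypes with oxLDL 10 went from 1 to 2 with a term for Xist-positive libraries and without those libraries, and the second gene was Spic. The number called for the interaction with oxLDL 60 went from 0 to 1 with the replicate block, which added Slc40a1, and over all alternatives the adjusted p of that interaction ran from 0.0487 to 0.804. Among the iron genes the replicate block changed 1 other call, that of Cp with oxLDL 10 in Apoe-/-. Leaving out 1 library moved the genotype difference of Tfrc, which was not called, from -0.059 to 0.32 with oxLDL 10 and from -0.11 to 0.19 with oxLDL 60, so its sign was not settled there. The causes were not tested. A filter of 1 RPKM removed Cp and gave no value for it. The 3 replicates of a group limit precision more visibly for Cp, Tfrc and Spic (SE 0.26, 0.21 and 0.19) than for Slc11a1 (0.06).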
